A study of Homo sapiens with 60 samples.

Results

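HepG2 cells, an established human liver tumour line, were compared after 24 h with the ethanol extract of Aucklandiae Radix at 56 ug/mL and at 11.2 ug/mL. Aucklandiae Radix is the dried root of a composite-family plant used in East Asian medicine. The libraries were chosen by their labels alone: 2 at the medium dose of 56 ug/mL and 2 at the low dose of 11.2 ug/mL, which makes 4 of the 60 libraries of the series. The high dose of this extract, 280 ug/mL with 2 libraries, was set where growth was inhibited by 20%, so the medium and low doses are its dilutions by 5 and 25 times, and this comparison looks at expression below the inhibitory dose. Polygalae Radix extract, the other herb of the same numbered set, was given at 50 and 10 ug/mL (2 libraries each) and serves here to show the same 5-fold step of another extract. Vehicle had 3 libraries, and its DMSO content is 0.1% in the labels but 2% in the design text. Both herbs were extracted with 70% ethanol, and every group is the same cell line, a tumour-derived line with one genetic background. The labels do not say whether libraries of a group came from separate cultures, so the p-values measure the spread between libraries, which may be technical. In bulk RNA, fewer cells of a type and less RNA per cell cannot be told apart.

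The root of this plant is known for its sesquiterpene lactones, costunolide and dehydrocostus lactone, whose reactive double bond binds thiols such as glutathione and the cysteines of proteins. In hepatocytes, thiol-reactive compounds are known to modify KEAP1, the adaptor that marks the transcription factor NRF2 for degradation. NRF2 then binds antioxidant response elements and raises genes for glutathione synthesis, thioredoxin, NADPH supply, aldo-keto reductases and heme breakdown. Stronger thiol damage is known to also engage heat shock factor 1, which raises cytosolic chaperones, and ATF4, which raises genes of amino acid supply.

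The libraries held 22.6 and 22.4 M counts at 56 ug/mL, against 26.7 and 24.2 M at 11.2 ug/mL. Mitochondrially encoded genes took 12.3% and 11.3% of counts at 56 ug/mL, against 14.0% and 12.4% at 11.2 ug/mL. All 8 defining hepatocyte markers (ALB, AFP, APOA1, APOB, TF, TTR, SERPINA1 and HNF4A) were expressed in all 4 libraries. Among markers of other cells, PTPRC and CD3E of leukocytes, HBB of red cells, DCN and LUM of stroma, KDR and TEK of endothelium and SFTPC of lung had 0 counts in these 4 libraries. Other members of the same lists were expressed, as the sums below show. The 9 blood markers summed to 904 and 985 CPM (counts scaled to the library total, here without further scaling) at 56 ug/mL, against 1200 and 1190 CPM at 11.2 ug/mL, nearly all from LYZ, which this line expresses. The summed markers were 59.9 to 62.6 CPM at 56 ug/mL against 61.9 to 63.0 CPM at 11.2 ug/mL for stroma, and 4.07 to 4.16 against 4.67 to 4.84 CPM for endothelium. Lung and gut markers summed to 293 and 315 CPM at 56 ug/mL, against 308 and 311 CPM at 11.2 ug/mL, nearly all from VIL1. ACTA2 made up most of the stroma sum (55.0 and 51.0 against 51.1 and 50.8 CPM). CD68 of the blood list had 43.7 and 37.8 CPM at 56 ug/mL, against 30.6 and 28.9 CPM at 11.2 ug/mL.

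Few genes passed the test for the step to 56 ug/mL, and most of those that passed differed modestly. By edgeR's quasi-likelihood test with Benjamini-Hochberg adjustment, 739 of 16982 genes passed an adjusted p of 0.05, which is 4.35%. Of these, 394 were higher at 56 ug/mL (2.32% of genes tested) and 345 were lower (2.03%), a balance that turned to 342 higher and 491 lower with no filter on low counts and to 564 and 629 with only the compared groups in the fit. Only 20 of the higher and 15 of the lower ones differed at least 2-fold, and the median size among called genes was 0.32 on the log2 scale, against 0.11 over all genes tested. In 738 of the 739 called genes both medium-dose libraries stood on the same side of both low-dose libraries. Such separation is therefore only a description where it is given for a called gene below. The genes with the largest rises were led by enzymes of detoxification, among them GSTA2, PTGR1, GSTA1, AKR1C2 and AKR1C1, while FABP1, TTYH1 and SLC6A14 had the largest falls. In the text below, CPM are scaled by TMM, log2 fold changes are 56 over 11.2 ug/mL with their standard error (SE), and adjusted p-values come from that edgeR test. Leaving out any 1 of the 4 libraries left 323 to 385 calls, so genes whose call did not survive such a fit are pointed out.

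Of 37 tested genes on 3 lists of the antioxidant programme (glutathione and thioredoxin, NADPH with quinone and aldo-keto reduction, heme and iron), 21 rose and 0 fell at 56 ug/mL. That is 56.8% of the members, against 2.32% of all genes tested, and their median log2 fold change was 0.26, against 0.00 over all genes. The count of 0 fallen members comes from edgeR; the counts by DESeq2 and at an unadjusted p under 0.05 stand with each list. These lists were written with earlier results of these data known.

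Among the glutathione and thioredoxin genes, 9 of 13 tested members rose and 0 fell, with a list median of 0.31 (10 and 0 by DESeq2, and 10 and 1 at an unadjusted p under 0.05). The largest rise among all eligible genes was that of GSTA2, an alpha-class glutathione transferase abundant in liver. GSTA2 had 58.0 and 54.8 CPM at 56 ug/mL, against 16.3 and 15.4 CPM at 11.2 ug/mL. The groups lie far apart, and the fold was 3.55 (log2 1.83 ± 0.11 SE, adjusted p = 8.4e-17). Its neighbour GSTA1, which encodes the most abundant alpha-class enzyme of hepatocytes, had 186 and 175 CPM at 56 ug/mL, against 72.9 and 70.8 CPM at 11.2 ug/mL. GSTA1 was 2.51-fold higher (log2 1.33 ± 0.08 SE, adjusted p = 8.9e-17). The 2 genes lie beside each other on the minus strand of chromosome 6 (GRCh38, GSTA2 at 52750089 to 52763569 and GSTA1 at 52791664 to 52803910), and their transcripts are near-identical copies, so reads may be split between them and the share of each is uncertain.

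The promoters of GSTA1 and GSTA2 are shown because these neighbours rose together and their sequences are nearly the same. Over 300 bases, from 250 before to 50 after the RefSeq start (GRCh38.p14, minus strand), 288 bases are identical, or 96.0%, and capitals mark the 12 positions that differ.
GSTA1 promoter, chr6:52803767-52804066: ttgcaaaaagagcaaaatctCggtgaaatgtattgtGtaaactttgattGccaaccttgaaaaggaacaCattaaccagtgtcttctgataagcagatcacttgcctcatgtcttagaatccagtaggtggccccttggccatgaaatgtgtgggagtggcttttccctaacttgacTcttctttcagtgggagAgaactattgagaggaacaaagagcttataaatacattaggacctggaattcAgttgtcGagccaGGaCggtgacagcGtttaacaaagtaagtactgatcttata
GSTA2 promoter, chr6:52763426-52763725: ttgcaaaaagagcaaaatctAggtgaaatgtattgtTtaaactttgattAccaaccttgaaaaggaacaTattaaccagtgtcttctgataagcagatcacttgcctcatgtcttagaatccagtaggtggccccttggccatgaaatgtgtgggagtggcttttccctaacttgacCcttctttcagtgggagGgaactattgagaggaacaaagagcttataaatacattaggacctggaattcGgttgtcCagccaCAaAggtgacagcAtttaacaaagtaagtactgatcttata

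The genes of glutathione synthesis rose less. GCLM, the modifier subunit of glutamate-cysteine ligase, had 53.5 and 56.6 CPM at 56 ug/mL, against 41.5 and 41.0 CPM at 11.2 ug/mL (log2 0.42 ± 0.07 SE, adjusted p = 4.6e-05). GCLC, the catalytic subunit, had 112 and 113 CPM at 56 ug/mL, against 93.3 and 88.6 CPM at 11.2 ug/mL (log2 0.31 ± 0.06 SE, adjusted p = 0.00024). In both genes the 2 medium-dose libraries stood above the 2 low-dose libraries. SLC7A11, the cystine importer that feeds this synthesis, did not pass the test, with 53.01 and 55.87 CPM at 56 ug/mL against 55.4 and 57.1 CPM at 11.2 ug/mL and a log2 fold change of -0.05 ± 0.17 (SE).

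Genes that reduce thioredoxin and peroxides rose by similar amounts. TXNRD1, the cytosolic thioredoxin reductase, had 283 and 284 CPM at 56 ug/mL, against 208 and 210 CPM at 11.2 ug/mL (log2 0.44 ± 0.04 SE, adjusted p = 6.0e-10). SRXN1, sulfiredoxin, which repairs overoxidized peroxiredoxins, had 132 and 131 CPM at 56 ug/mL, against 97.7 and 99.6 CPM at 11.2 ug/mL (log2 0.41 ± 0.05 SE, adjusted p = 1.5e-07). The replicates of both genes differ by far less than the doses do. GSR, glutathione reductase, was higher by 0.24 ± 0.04 (SE) on the log2 scale with an adjusted p of 0.00017. OSGIN1, an oxidative stress-induced growth inhibitor, had 61.4 and 63.1 CPM at 56 ug/mL, against 41.4 and 44.6 CPM at 11.2 ug/mL (log2 0.53 ± 0.12 SE, adjusted p = 0.0026), and missed the threshold without replicate 2 of the low dose (adjusted p = 0.087). PRDX1, a peroxiredoxin, was higher by 0.26 ± 0.06 (SE) with an adjusted p of 0.0033, but this call held in only 1 of the 4 fits without a library. TXN, thioredoxin itself, had a log2 fold change of 0.27 ± 0.09 (SE) and an adjusted p of 0.055, and GPX2, an epithelial glutathione peroxidase, one of -0.23 ± 0.08 (SE) with an adjusted p of 0.082.

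The promoters of GCLM and TXNRD1 are shown because both hold a core of the antioxidant response element, TGACNNNGC, read on the strand opposite to the printed one and marked in capitals (RefSeq, GRCh38.p14). The core begins at position -34 from the start of GCLM (minus strand) and at position -102 from one of the starts of TXNRD1 (plus strand).
GCLM promoter, chr1:93909381-93909680: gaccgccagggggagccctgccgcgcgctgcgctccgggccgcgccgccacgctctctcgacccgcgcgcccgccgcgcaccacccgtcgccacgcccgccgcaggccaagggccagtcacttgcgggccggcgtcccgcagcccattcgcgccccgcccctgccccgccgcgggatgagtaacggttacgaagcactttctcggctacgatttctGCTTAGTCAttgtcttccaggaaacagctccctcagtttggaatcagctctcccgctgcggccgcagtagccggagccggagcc
TXNRD1 promoter, chr12:104286782-104287081: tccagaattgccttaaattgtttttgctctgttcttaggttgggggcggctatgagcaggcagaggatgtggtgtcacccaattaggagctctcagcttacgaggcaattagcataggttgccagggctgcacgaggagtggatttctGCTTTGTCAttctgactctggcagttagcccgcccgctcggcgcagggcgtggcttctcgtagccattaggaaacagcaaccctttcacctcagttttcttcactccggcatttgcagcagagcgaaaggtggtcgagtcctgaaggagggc

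Among the genes of NADPH supply, quinone and carbonyl reduction and conjugate export, 7 of 14 tested members rose and 0 fell, with a median of 0.23. At an unadjusted p under 0.05 the numbers were 11 and 0, and DESeq2 called 8 and 0. AKR1C1 and AKR1C2 reduce ketosteroids and lipid aldehydes. AKR1C1 had 2062 and 2000 CPM at 56 ug/mL, against 1055 and 1021 CPM at 11.2 ug/mL (log2 0.97 ± 0.07 SE, adjusted p = 1.2e-14). AKR1C2 had 1051 and 1011 CPM at 56 ug/mL, against 474 and 455 CPM at 11.2 ug/mL (log2 1.15 ± 0.07 SE, adjusted p = 2.7e-16). Both about doubled from 11.2 to 56 ug/mL. Their neighbour AKR1C3 was higher by 0.60 ± 0.08 (SE), and since the 3 genes on chromosome 10 are near-identical copies, the values of each are uncertain.

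AKR1B10, an aldose reductase-like enzyme of retinal and lipid aldehydes on chromosome 7, had 146 and 152 CPM at 56 ug/mL, against 95.7 and 99.8 CPM at 11.2 ug/mL (log2 0.61 ± 0.07 SE, adjusted p = 1.1e-08). ABCC3, an exporter of glucuronide and glutathione conjugates, had 118 and 118 CPM at 56 ug/mL, against 74.4 and 75.8 CPM at 11.2 ug/mL (log2 0.65 ± 0.06 SE, adjusted p = 4.1e-11). The medium dose stood above the low dose in every library for both. ABCC2, the canalicular exporter, was higher by 0.32 ± 0.05 (SE), with an adjusted p of 5.2e-06. NQO1, quinone reductase and the most used marker of this programme, did not pass, with 706 and 702 CPM at 56 ug/mL against 628 and 642 CPM at 11.2 ug/mL (log2 0.15 ± 0.05 SE, adjusted p = 0.066). NQO1 did pass by DESeq2 (adjusted p = 0.020), with the GC and length trend removed (0.043), also with the replicate block (0.041), with only the compared groups (0.020) and with a filter at a mean of 1 CPM (0.0498), but in no fit without a library (0.20 to 0.39).

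PTGR1 was on none of the lists and had the smallest adjusted p of the genes named here. It encodes an NADPH-dependent reductase of the double bond next to a carbonyl group in prostaglandins and lipid enals. PTGR1, at 111549722 to 111599893 on the minus strand of chromosome 9 (GRCh38), had 76.3 and 70.6 CPM at 56 ug/mL, against 26.2 and 27.6 CPM at 11.2 ug/mL. The fold was 2.73 (log2 1.45 ± 0.07 SE, adjusted p = 1.5e-21), and it was called in all 4 fits without a library.

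Of the heme and iron genes 5 of 10 rose and 0 fell, with a median of 0.19. DESeq2 called 4 and 0, and 7 and 0 passed an unadjusted p of 0.05. HMOX1, heme oxygenase, which opens the heme ring, had 75.1 and 67.4 CPM at 56 ug/mL, against 49.2 and 48.6 CPM at 11.2 ug/mL (log2 0.54 ± 0.06 SE, adjusted p = 1.9e-08). BLVRB, biliverdin reductase B, had 18.2 and 17.9 CPM at 56 ug/mL, against 10.5 and 11.5 CPM at 11.2 ug/mL (log2 0.71 ± 0.09 SE, adjusted p = 4.2e-07). For both genes the call held without any 1 library. FTH1, the ferritin heavy chain, had 2964 and 2461 CPM at 56 ug/mL, against 2121 and 2028 CPM at 11.2 ug/mL. Its log2 fold change was 0.39 ± 0.08 (SE, adjusted p = 0.00083), and without replicate 2 of the medium dose it was 0.24 with an adjusted p of 0.19. FECH, which inserts iron into protoporphyrin to make heme, and SLC40A1, the iron exporter, were called at 0.20 and 0.17. Both calls were lost in most fits without a library, where the log2 fold change of FECH ranged from 0.13 to 0.26.

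Of the 8 regulators of the programme only SQSTM1 rose, where 2.32% of all genes tested did. SQSTM1 encodes the autophagy receptor that also binds KEAP1, and it had 284 and 274 CPM at 56 ug/mL, against 212 and 216 CPM at 11.2 ug/mL (log2 0.39 ± 0.05 SE, adjusted p = 1.5e-07). The transcript of NRF2 itself (NFE2L2) had a log2 fold change of -0.07 ± 0.05 (SE), KEAP1 one of 0.03 ± 0.06 (SE), and the small Maf partner MAFG one of -0.07 ± 0.10 (SE), none past the test. MAFF, another small Maf gene, had 7.02 and 6.53 CPM at 56 ug/mL, against 4.88 and 5.81 CPM at 11.2 ug/mL, with an adjusted p of 0.32.

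**Figure D1:**
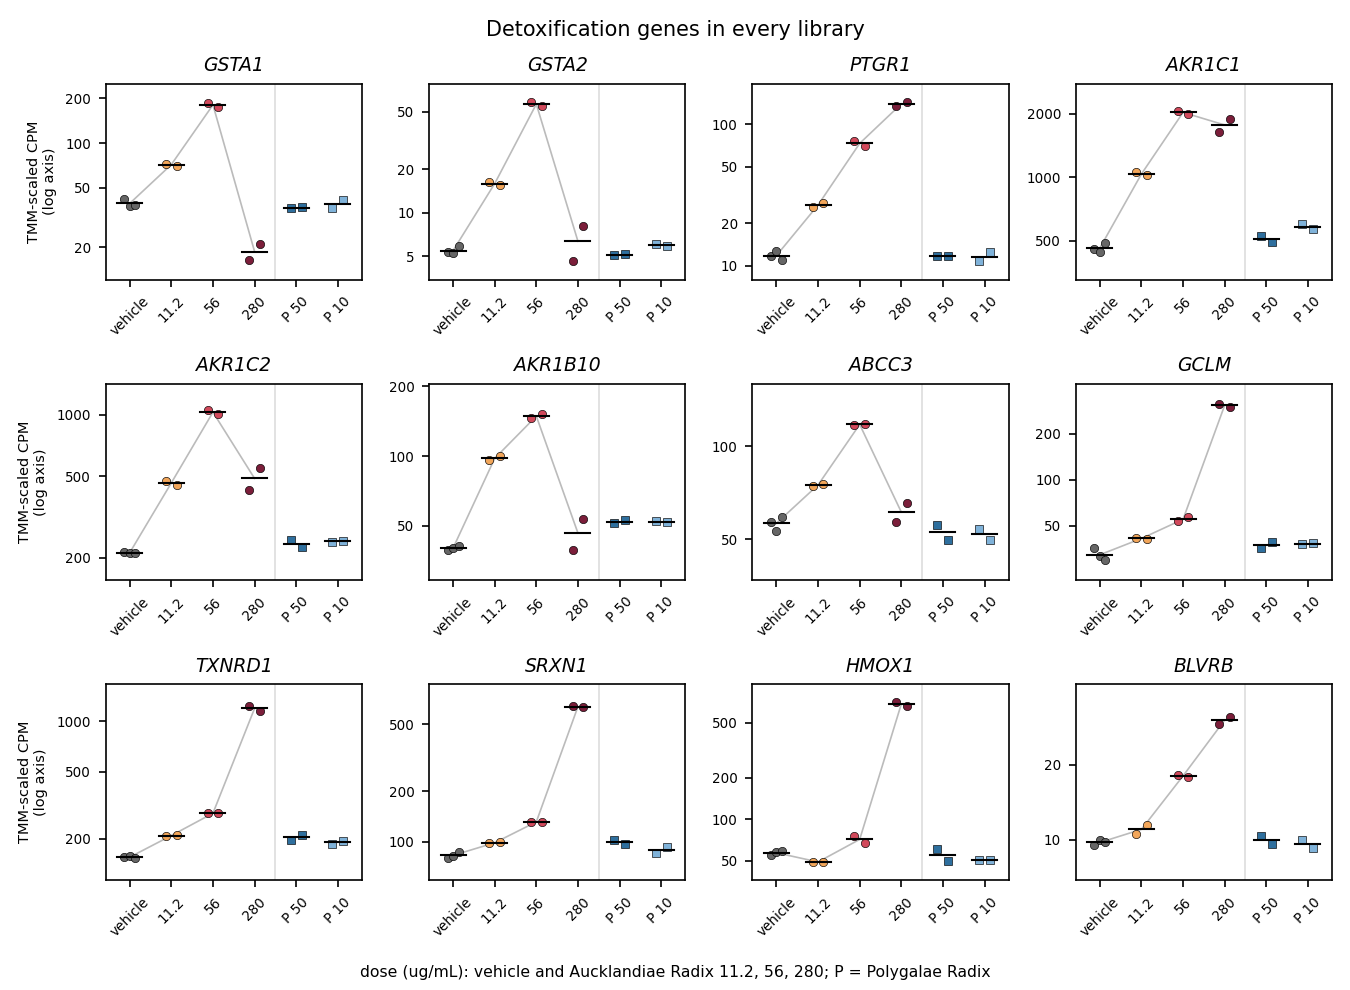
TMM-scaled CPM (log axis) of 12 detoxification genes in each library of vehicle, Aucklandiae Radix at 11.2, 56 and 280 ug/mL, and Polygalae Radix at 50 and 10 ug/mL (P 50 and P 10). Points are libraries, black bars are group means and grey lines join the Aucklandiae means. In each panel both libraries at 56 ug/mL lie above both at 11.2 ug/mL, a separation that nearly all called genes have. GSTA1, GSTA2, AKR1B10, AKR1C2 and ABCC3 are among the panels that are lower again at 280 ug/mL.

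The plot of detoxification genes by dose shows where the low dose already stood. At 11.2 ug/mL PTGR1 was above vehicle, which had 11.8, 12.6 and 11.0 CPM, by a log2 fold change of 1.19. GSTA2 was above vehicle by 1.55, AKR1B10 by 1.29, AKR1C1 by 1.17, AKR1C2 by 1.14 and NQO1 by 0.78. Vehicle has its own set label and a steeper slope of expression on GC content (0.09 to 0.22 log2 per 10 points, against -0.01 at 56 ug/mL and 0.00 to 0.02 at 11.2 ug/mL). Treatment and set therefore cannot be told apart in any comparison with it. The count called against vehicle was 6829 genes at 56 ug/mL (40.2%, with 20.6% higher and 19.6% lower) and 5656 genes (33.3%, with 16.9% higher and 16.4% lower) at 11.2 ug/mL. The low doses of 6 other extracts were pooled in place of vehicle, a choice made after seeing the data. The pool held Polygalae Radix of the same set at 10 ug/mL and 5 extracts of other sets at 20 ug/mL. Those 5 were Soyo-san, Menthae Herba, Guibi-tang, Saposhnikoviae Radix and Saengmaek-san, so the pooled doses were not equal. Against the pool, 3062 genes (18.0%, with 9.36% higher and 8.67% lower) were called at 56 ug/mL. At 11.2 ug/mL, 128 genes (0.754%, with 0.43% higher and 0.324% lower) were called against it. Against those low doses, 11.2 ug/mL Aucklandiae Radix was still higher for GSTA2 by 1.06, PTGR1 by 1.02, AKR1B10 by 0.88, AKR1C2 by 0.84, AKR1C1 by 0.73, GSTA1 by 0.62, ABCC3 by 0.50 and NQO1 by 0.42, each past the same threshold. HMOX1 and GCLM did not pass there, at -0.03 and 0.08. Of the 13 glutathione and thioredoxin genes 8, and of the 14 NADPH and carbonyl genes also 8, were higher at 11.2 ug/mL than in the other low doses.

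The next step of the ladder, from 56 to 280 ug/mL, did not continue evenly. It shares the 56 ug/mL libraries with the comparison above and called 11637 genes, 68.5% of those tested (33.2% higher at 280 ug/mL and 35.3% lower). GCLM had 313 and 299 CPM at 280 ug/mL, which is higher than at 56 ug/mL by 2.47 on the log2 scale. TXNRD1 was higher at 280 than at 56 ug/mL by 2.07, SRXN1 by 2.28, SQSTM1 by 1.52 and HMOX1 by 3.26, the last with 703 and 659 CPM at 280 ug/mL. PTGR1 was higher by 0.93. GSTA1, in contrast, had 16.4 and 21.1 CPM at 280 ug/mL, a log2 fold change of -3.27 against 56 ug/mL and a level under that of vehicle, 41.9, 38.0 and 38.2 CPM. GSTA2 fell by 3.15, AKR1B10 by 1.68, AKR1C2 by 1.08, ABCC3 by 0.94 and NQO1 by 0.73 over that step. Over the whole lists, the step to 280 ug/mL called 8 of 13 glutathione and thioredoxin genes higher and 3 lower, but 2 of 14 NADPH and carbonyl genes higher and 9 lower.

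**Figure D2:**
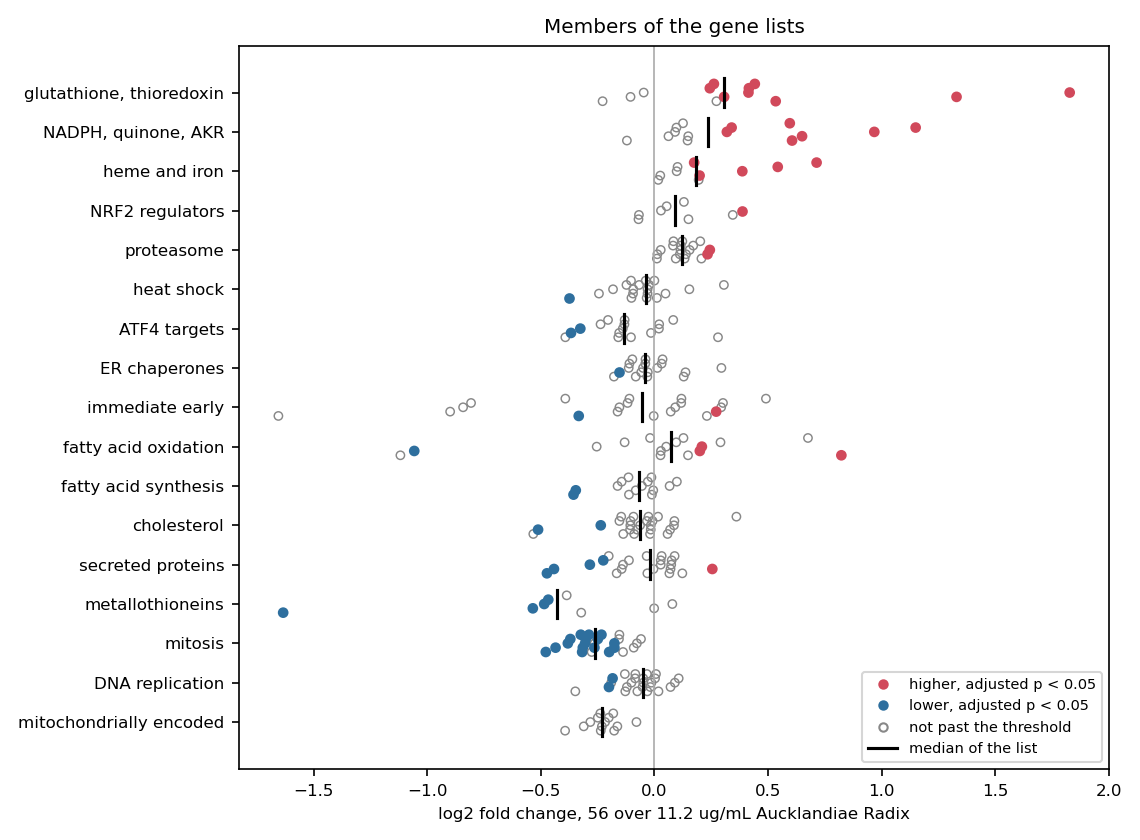
Log2 fold change of 56 over 11.2 ug/mL for the tested members of the gene lists named on the axis. Filled points passed an adjusted p of 0.05 (red higher, blue lower), open points did not, and black lines are list medians; HSPA6, at 0.26 CPM or less in these 4 libraries, is not drawn. The detoxification lists extend to the right up to 1.83, and all mitosis genes lie left of 0.

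Other genes among the 15 largest rises are described one by one. CPT1A, the carnitine palmitoyltransferase that admits fatty acids to mitochondria, had 95.9 and 94.7 CPM at 56 ug/mL, against 55.7 and 52.0 CPM at 11.2 ug/mL (log2 0.82 ± 0.07 SE, adjusted p = 4.7e-11). CYP19A1, aromatase, which makes estrogens, had 18.7 and 17.8 CPM at 56 ug/mL, against 8.92 and 8.22 CPM at 11.2 ug/mL (log2 1.09 ± 0.11 SE, adjusted p = 9.2e-10). CYP24A1, the hydroxylase that inactivates vitamin D, had 65.3 and 65.7 CPM at 56 ug/mL, against 36.6 and 31.8 CPM at 11.2 ug/mL (log2 0.94 ± 0.09 SE, adjusted p = 2.5e-10). All 3 genes were separated between the doses, which the rule for the 15 largest rises requires. STAR, the carrier of cholesterol into mitochondria for steroid synthesis, was higher by 0.91 ± 0.14 (SE) at 7.85 and 9.38 CPM against 4.57 and 4.61 CPM. SULT2A1, a liver sulfotransferase of steroids and bile acids, was the 1 member of 9 tested PXR and CAR targets that rose, by 0.46 ± 0.05 (SE), and DESeq2 also called 1. The share called higher over all genes tested was 2.32%.

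The remaining top genes include transporters and trafficking genes. SLC5A11, a sodium-coupled inositol transporter, had 7.41 and 7.06 CPM at 56 ug/mL, against 2.96 and 3.53 CPM at 11.2 ug/mL (log2 1.16 ± 0.15 SE). SLC16A6, a monocarboxylate carrier of ketone bodies, was higher by 0.79 ± 0.10 (SE), RAB31, a small GTPase of vesicle traffic, by 1.05 ± 0.12 (SE), LGALS3, the lectin galectin-3, by 0.72 ± 0.09 (SE) and MAPK8IP2, a scaffold of JNK signalling, by 0.73 ± 0.12 (SE). The 15 genes with the largest rises were all called in each of the 4 fits without a library.

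Of 16 tested genes of fatty acid oxidation and PPARA targets, 3 rose, CPT1A and PLIN2 among them, and 1 fell (FABP1), with a median of 0.07. The shares over all genes tested were 2.32% higher and 2.03% lower. PLIN2, the lipid droplet coat, was higher by 0.20 ± 0.06 (SE), a call that held in 0 of the 4 fits without a library (adjusted p 0.10 to 0.33). Among bile acid genes SLC51B, a subunit of the basolateral bile acid exporter, was higher by 0.64 ± 0.16 (SE) and NR1H4, the bile acid receptor FXR, by 0.27 ± 0.08 (SE), the call of SLC51B holding in 1 and that of NR1H4 in 0 of the 4 fits. Both calls were therefore lost in most fits with 1 library fewer, and no particular library is singled out by this.

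No chaperone on the heat shock list was called higher at 56 ug/mL. By edgeR 0 of 20 were higher and 1, HSPB1, was lower, against 2.32% higher and 2.03% lower over all genes tested. In a list of this size these counts are near those shares and are not read as a result about the list. The list median was -0.04, and the largest log2 fold change, 2.66, did not pass. At an unadjusted p under 0.05 the counts were 2 higher and 3 lower, and DESeq2 called 0 higher and 1 lower. HSPA1A, the stress-inducible HSP70, had 65.03 and 68.45 CPM at 56 ug/mL, against 75.9 and 75.6 CPM at 11.2 ug/mL (log2 -0.18 ± 0.12 SE, adjusted p = 0.53, but 0.026 with only the compared groups in the fit), though its copy HSPA1B makes the split of reads uncertain. DNAJB1, an HSP40 co-chaperone, had 125 and 122 CPM at 56 ug/mL, against 131 and 127 CPM at 11.2 ug/mL (log2 -0.07 ± 0.06 SE, adjusted p = 0.68). At 280 ug/mL HSPA1A reached 4494 and 3375 CPM and DNAJB1 685 and 548 CPM. All 20 list members were called higher there than at 56 ug/mL, against 33.2% of all genes tested. HSPB1, a small heat shock protein, was lower at 56 ug/mL by -0.38 ± 0.10 (SE, adjusted p = 0.024), a call that no fit without a library kept (adjusted p 0.092 to 0.22).

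No target of ATF4 and no gene of the endoplasmic reticulum list was called higher either, against 2.32% higher and 2.03% lower over all genes tested. Of 16 tested ATF4 targets 0 were higher by edgeR, by DESeq2 and at an unadjusted p under 0.05. By edgeR 2 were lower, PHGDH and SHMT2, both of serine and glycine metabolism, at -0.37 ± 0.06 and -0.33 ± 0.06 (SE). DESeq2 also called 2 lower. At an unadjusted p under 0.05, 5 ATF4 targets and 4 endoplasmic reticulum genes were lower. In 12 of the 16 ATF4 targets the log2 fold change was negative, with a list median of -0.14. PHGDH had 98.1 and 98.8 CPM at 56 ug/mL, against 125 and 129 CPM at 11.2 ug/mL. TRIB3, a pseudokinase induced by ATF4, had a log2 fold change of -0.10 ± 0.10 (SE, adjusted p = 0.70), with 124 and 131 CPM at 56 ug/mL against 138 and 135 CPM at 11.2 ug/mL. Of 18 endoplasmic reticulum genes 0 rose (1 at an unadjusted p under 0.05, 0 by DESeq2), and 1, CALR, was lower by -0.15 ± 0.04 (SE), which did not hold without any 1 library (adjusted p 0.061 to 0.19).

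**Figure D3:**
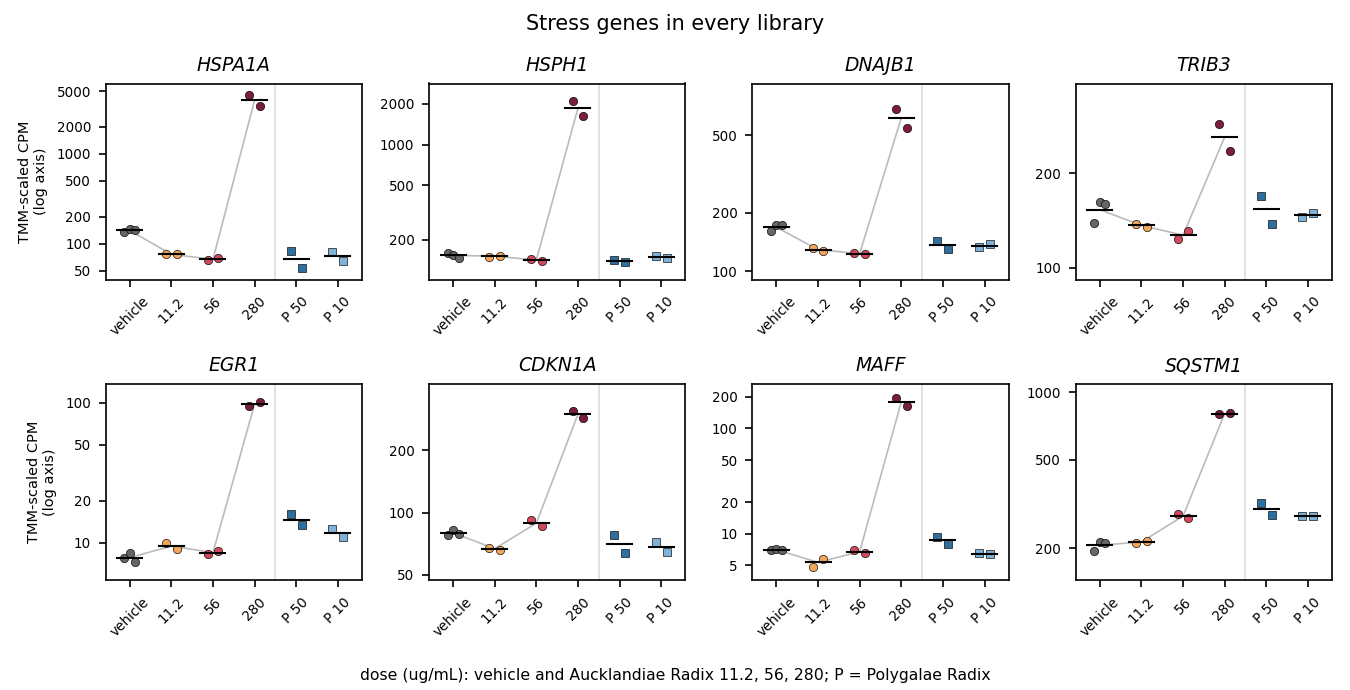
TMM-scaled CPM (log axis) of 8 stress genes in each library of vehicle, Aucklandiae Radix at 11.2, 56 and 280 ug/mL, and Polygalae Radix at 50 and 10 ug/mL. Points are libraries and black bars group means. HSPA1A, HSPH1, DNAJB1 and EGR1 stay near their low-dose level at 56 ug/mL and stand far above it at 280 ug/mL, where HSPA1A reached 4494 and 3375 CPM.

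Early response genes and p53 targets held few calls. With 2.32% of all genes tested called higher and 2.03% lower, these few calls are not read as a result about their lists. Of 20 immediate early and ERK feedback genes, KLF6 was higher (0.27 ± 0.07 SE, adjusted p = 0.020) and DUSP6, an ERK phosphatase, was lower (-0.33 ± 0.07 SE, adjusted p = 0.0031). KLF6 kept its call in 1 and DUSP6 in 3 of the fits without a library. EGR1 had 8.33 and 8.72 CPM at 56 ug/mL, against 9.99 and 8.96 CPM at 11.2 ug/mL, and did not pass (adjusted p = 0.72). Of 16 p53 targets CDKN1A, the cell cycle inhibitor p21, and MDM2, the p53 ligase, were called. CDKN1A had 91.6 and 86.0 CPM at 56 ug/mL, against 67.6 and 66.1 CPM at 11.2 ug/mL (log2 0.41 ± 0.10 SE, adjusted p = 0.0087), which held only in the fit without replicate 3 of the medium dose (adjusted p 0.035 to 0.14 over the 4 fits). MDM2, at 0.22 ± 0.06 (SE), held in 1 of the 4 fits.

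All 18 proteasome subunits had a positive log2 fold change, with a median of 0.12, but only PSMC2 and PSMC4 passed the test, at 0.24 ± 0.06 and 0.23 ± 0.05 (SE). By the same test 2.32% of all genes were higher. At an unadjusted p under 0.05 there were 10 subunits higher and 0 lower, and DESeq2 called 4 and 0. In 15 of the 18 both medium-dose libraries stood above both low-dose libraries, a pattern that 25.2% of all genes tested also show. PSMC2 kept its call in 1 and PSMC4 in 3 of the 4 fits without a library. At 280 ug/mL, 12 of the 18 were higher than at 56 ug/mL and 0 lower, against 33.2% higher and 35.3% lower among all genes tested.

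The genes lower at 56 ug/mL were led by FABP1, the fatty acid binding protein of liver. FABP1 had 46.5 and 54.3 CPM at 56 ug/mL, against 97.3 and 112 CPM at 11.2 ug/mL (log2 -1.06 ± 0.15 SE, adjusted p = 3.7e-06). SLC6A14, an amino acid transporter, had 18.3 and 20.2 CPM at 56 ug/mL, against 39.9 and 37.7 CPM at 11.2 ug/mL (log2 -1.01 ± 0.10 SE, adjusted p = 6.0e-10). Both were about 2 times lower, and both were lower still at 280 ug/mL, with 12.3 and 11.9 CPM for FABP1 and 1.42 and 1.16 CPM for SLC6A14. ARSI, a sulfatase, was lower by -0.96 ± 0.09 (SE), SCN1A, a sodium channel subunit, by -0.82 ± 0.09 (SE), and TTYH1, a membrane protein of the tweety family, by -1.05 ± 0.15 (SE). The 2 libraries of TTYH1 at 56 ug/mL, 3.77 and 5.87 CPM, differ more from each other than those at 11.2 ug/mL, 9.95 and 10.1 CPM, and without replicate 2 or 3 of the medium dose its log2 fold change ranged from -1.41 to -0.77.

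Among the 15 largest falls were also the homeobox genes HOXD1 (-0.999 ± 0.14 SE) and IRX3 (-0.79 ± 0.12 SE) and the HMG-box gene SOX6 (-0.77 ± 0.14 SE). IRX3 had 17.6 and 13.9 CPM at 56 ug/mL, against 29.7 and 24.4 CPM at 11.2 ug/mL. MBL2, the mannose-binding lectin secreted by liver, had 7.54 and 8.98 CPM at 56 ug/mL, against 13.5 and 14.4 CPM at 11.2 ug/mL (log2 -0.75 ± 0.11 SE). SLC13A3, a sodium-coupled dicarboxylate transporter, and FREM1, a matrix protein, were both lower by -0.67, with the smallest errors of this group (SE 0.06 and 0.05). ZNF385B and PLXNB3 were both lower by -0.67, and PLXNB3, a semaphorin receptor, lost its call without replicate 3 of the low dose or replicate 2 of the medium dose (adjusted p 0.053 and 0.054).

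Among oncofetal genes IGF2 and AFP fell (2 of 8). For this and the lists that follow, the shares over all genes tested were 2.03% lower and 2.32% higher. IGF2, the fetal growth factor, had 1182 and 1212 CPM at 56 ug/mL, against 1896 and 2039 CPM at 11.2 ug/mL (log2 -0.72 ± 0.08 SE, adjusted p = 3.7e-09), but it overlaps the read-through gene INS-IGF2, so its own share is uncertain. AFP, alpha-fetoprotein, had 2095 and 2096 CPM at 56 ug/mL, against 2967 and 3016 CPM at 11.2 ug/mL (log2 -0.51 ± 0.06 SE, adjusted p = 3.4e-08). Of 22 secreted hepatocyte proteins APOA2, TTR, VTN and a fibrinogen chain, FGB, fell and HP rose, with a list median of -0.02. APOA2, an apolipoprotein of high-density lipoprotein, had 1282 and 1226 CPM at 56 ug/mL, against 1780 and 1702 CPM at 11.2 ug/mL (log2 -0.47 ± 0.10 SE). APOA2, TTR and VTN kept their calls in 3 of the 4 fits without a library, and FGB and HP in 2. ALB, albumin, did not pass, with 7757 and 7583 CPM at 56 ug/mL against 8272 and 8307 CPM at 11.2 ug/mL (log2 -0.11 ± 0.06 SE, adjusted p = 0.38). FOXA1 was the 1 of 13 hepatocyte transcription factors called, lower by -0.28 ± 0.05 (SE). Of 14 Wnt targets NKD1 and LGR5 fell, each by -0.39, and both kept their calls in all 4 fits without a library.

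**Figure D4:**
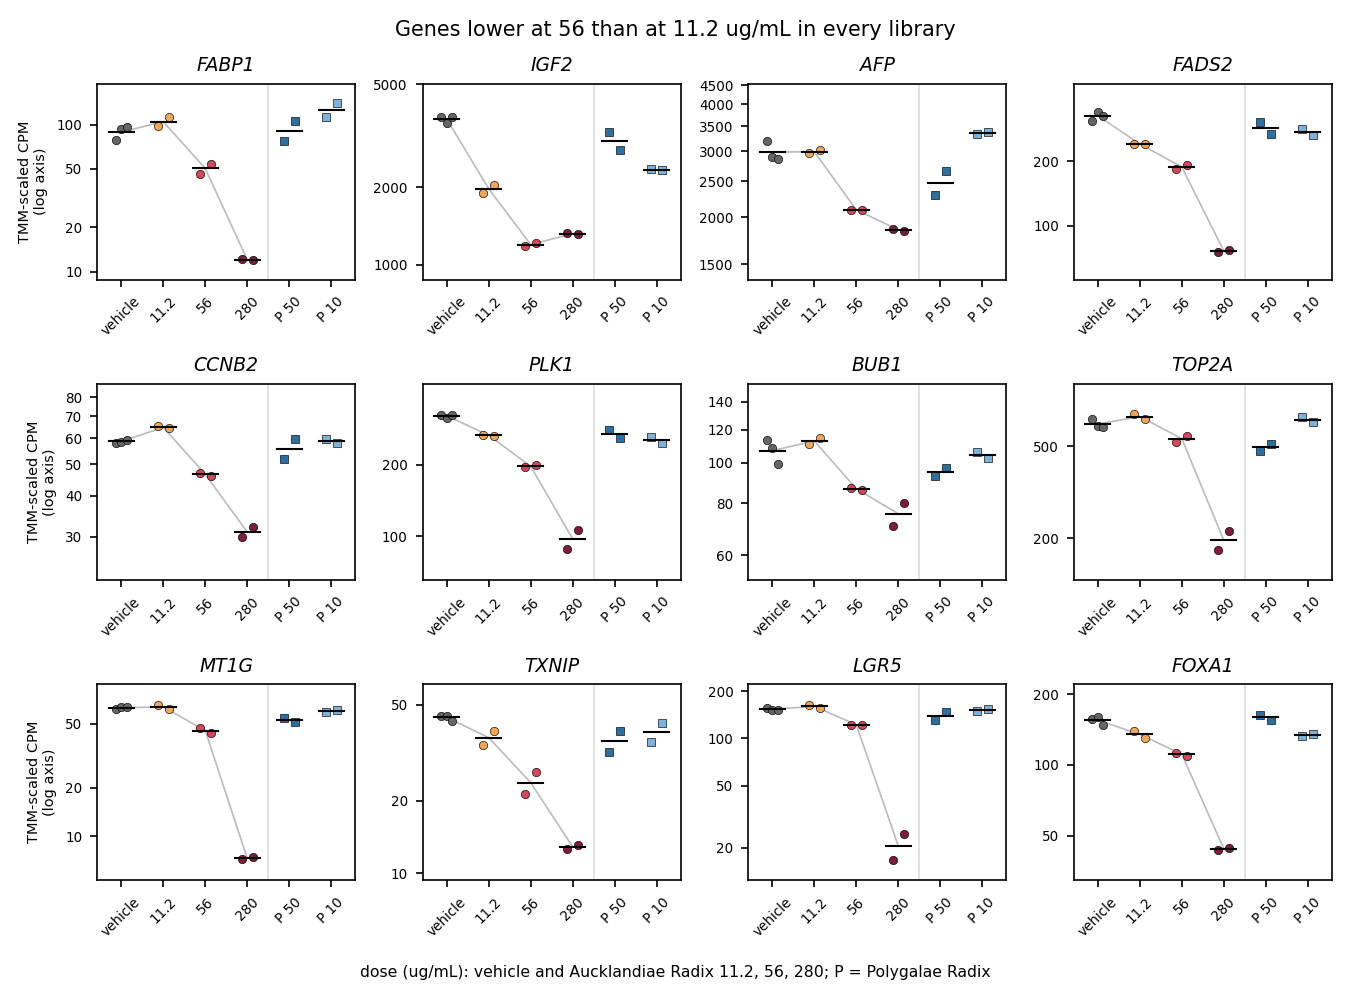
TMM-scaled CPM (log axis) of 12 genes called lower at 56 than at 11.2 ug/mL, in each library of vehicle, Aucklandiae Radix at 11.2, 56 and 280 ug/mL, and Polygalae Radix at 50 and 10 ug/mL. Points are libraries and black bars group means. Both libraries at 56 ug/mL lie below both at 11.2 ug/mL in every panel, a separation that nearly all called genes have. IGF2 is the panel where 280 ug/mL, with 1328 and 1312 CPM, is no lower than 56 ug/mL.

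Of 24 genes of mitosis 16 fell and none rose. All 24 had a negative log2 fold change, from -0.48 to -0.06 with a median of -0.26. By edgeR 16 were lower and 0 higher, against 2.03% lower and 2.32% higher over all genes tested. DESeq2 called 17 and 0, and 20 and 0 passed an unadjusted p of 0.05. In 23 of the 24 both medium-dose libraries stood below both low-dose libraries, against 24.5% of all genes tested. CCNB2, a mitotic cyclin, had 47.1 and 46.0 CPM at 56 ug/mL, against 65.3 and 64.4 CPM at 11.2 ug/mL (log2 -0.48 ± 0.06 SE, adjusted p = 5.7e-08). PLK1, a mitotic kinase, had 195 and 199 CPM at 56 ug/mL, against 268 and 265 CPM at 11.2 ug/mL (log2 -0.43 ± 0.05 SE, adjusted p = 1.1e-07). The doses did not overlap for either gene, and CCNB2 was 1.39-fold higher at 11.2 ug/mL. BUB1, a checkpoint kinase, and KIF20A, a mitotic kinesin, were lower by -0.38 and -0.37 (SE 0.06 each). MKI67, the proliferation marker, was lower by -0.23 ± 0.06 (SE, adjusted p = 0.019), a call lost without any 1 library (adjusted p 0.072 to 0.17). Without replicate 2 of the medium dose 10 mitosis genes were called.

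Of the DNA replication genes, 2 of 24, MCM7 and TYMS, were lower and 0 higher, with a median of -0.05 (DESeq2 called 2 and 0, and 7 and 1 passed an unadjusted p of 0.05). Over all genes tested 2.03% were lower and 2.32% higher by edgeR. MCM7, a helicase subunit, was lower by -0.20 ± 0.05 (SE) and TYMS, thymidylate synthase, by -0.18 ± 0.06 (SE), calls held by 1 and by 0 of the 4 fits. Of 11 tubulins TUBA1B, TUBA1C and TUBB were lower, TUBA1B by -0.27 ± 0.06 (SE). TUBA1B kept its call in all 4 fits without a library, TUBA1C in 1 and TUBB in 0. Tubulin genes have near-identical copies, so these values are uncertain. At 280 ug/mL 21 of the 24 mitosis genes and 21 of the 24 replication genes were lower than at 56 ug/mL, against 35.3% of all genes tested.

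Metallothioneins, the zinc- and copper-binding proteins, were lower in 4 of the 8 tested members of their list, with a median of -0.43. None was called higher, and over all genes tested 2.03% were lower and 2.32% higher by edgeR. DESeq2 called 4 members lower and 0 higher. At the same threshold without adjustment of p, 6 were lower and 0 higher. MT2A had 142 and 135 CPM at 56 ug/mL, against 199 and 201 CPM at 11.2 ug/mL (log2 -0.54 ± 0.13 SE, adjusted p = 0.0061). MT1E was lower by -0.47 ± 0.11 (SE) and MT1G by -0.48 ± 0.12 (SE). These genes on chromosome 16 are near-identical copies with uncertain shares. The calls rest on all 4 libraries: without one of them 0 to 3 members passed, with 0 when replicate 3 of the medium dose was left out, 1 without replicate 3 of the low dose, 2 without replicate 2 of the low dose and 3 without replicate 2 of the medium dose. MT1M, at 0.44 and 0.48 CPM against 1.27 and 1.62 CPM, was also called, with a mean below the naming minimum of 5 CPM.

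In lipid synthesis 2 of 25 cholesterol genes were lower, FDPS among them, and 2 of 14 fatty acid synthesis genes, FADS2 and ELOVL6. The share over all genes tested was 2.03%. FADS2, a fatty acid desaturase, had 184 and 192 CPM at 56 ug/mL, against 240.4 and 240.7 CPM at 11.2 ug/mL. FADS2 and ELOVL6, an elongase, were lower by -0.36 ± 0.05 and -0.35 ± 0.06 (SE). FADS2 and ELOVL6 kept their calls in all 4 fits without a library, and FDPS in 1. HMGCS1, of early cholesterol synthesis, did not pass, at -0.11 ± 0.07 (SE). TXNIP, which binds thioredoxin and restrains glucose uptake, had 21.3 and 26.2 CPM at 56 ug/mL, against 34.1 and 38.8 CPM at 11.2 ug/mL (log2 -0.62 ± 0.10 SE, adjusted p = 3.7e-05). SPTLC3, a subunit of serine palmitoyltransferase, had 52.8 and 55.0 CPM at 56 ug/mL, against 62.5 and 59.1 CPM at 11.2 ug/mL, and missed the threshold (log2 -0.17 ± 0.06 SE, adjusted p = 0.067, but 0.0051 with the GC and length trend removed and 0.0084 with the replicate block as well), whereas at 280 ug/mL it had only 1.46 and 1.86 CPM.

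The remaining lists held 1 to 3 calls each. Over all genes tested 2.32% were called higher and 2.03% lower, and these few calls are not read as a result about their lists. Of 13 glucose and FOXO genes INSR, the insulin receptor, was higher by 0.24 ± 0.06 (SE), and TXNIP and its relative ARRDC4 were lower, ARRDC4 by -0.63 ± 0.15 (SE). Of 16 sphingolipid genes ORMDL3, a brake on serine palmitoyltransferase, was lower by -0.21 ± 0.06 (SE). Of 16 autophagy genes CTSL, a lysosomal protease, and WIPI1 were higher by 0.26 each, and of 19 hypoxia genes NDRG1 was higher by 0.40 ± 0.11 (SE). Of 12 tested acute phase and NF-kB genes HAMP, the iron hormone hepcidin, had 37.3 and 38.6 CPM at 56 ug/mL, against 28.2 and 26.4 CPM at 11.2 ug/mL (log2 0.47 ± 0.10 SE, adjusted p = 0.0014), and ICAM1, an adhesion molecule, was lower by -0.25 ± 0.07 (SE). Without a library, HAMP kept its call in 3 of 4 fits, CTSL and WIPI1 in 2, ARRDC4, NDRG1 and ICAM1 in 1, and INSR and ORMDL3 in 0. Among markers of other cells LYZ was lower by -0.41 ± 0.06 (SE) in all 4 fits, PDGFRB was lower by -0.58 ± 0.14 (SE) and CD68 was higher by 0.41 ± 0.10 (SE), the last 2 in 2 of the 4 fits, and the part of other cells in any result was not tested.

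Some groups held no call in either direction by edgeR: 13 mitochondrially encoded genes, 21 nuclear respiratory chain genes, 18 ribosome biogenesis genes, 10 amino acid transporters and 7 tested AHR targets. At an unadjusted p under 0.05 their higher and lower counts were 0 and 2 for the mitochondrial genes, 1 and 2 for the nuclear chain, 1 and 0 for ribosome biogenesis, 0 and 2 for the transporters and 3 and 0 for the AHR targets. DESeq2 called 2 AHR targets higher and none in the other 4 groups. The mitochondrially encoded genes had a median of -0.23, beside their lower share of counts at 56 ug/mL given above. CYP1A1, the classic AHR target, had 11.0 and 12.0 CPM at 56 ug/mL, against 8.11 and 8.55 CPM at 11.2 ug/mL, with an adjusted p of 0.051. CYP1A1 passed in all 8 other settings that kept every library (adjusted p 0.0023 to 0.046), the replicate block among them (0.025), and in none of the 4 fits without a library (0.13 to 0.35).

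The step of Aucklandiae Radix was then set against the same 5-fold step of Polygalae Radix, with which it shares no library. The difference of the 2 steps passed an adjusted p of 0.05 for 1312 genes (7.73%), 726 more positive for Aucklandiae Radix (4.28%) and 586 more negative (3.45%). That count depends on the Polygalae libraries at 50 ug/mL, since it was 568 without replicate 2 and 2391 without replicate 3 of them. Replicate 2 stood apart there, with a GC slope of 0.186 log2 per 10 points against 0.003 in replicate 3, and hepatocyte markers summing to 37300 against 42300 CPM; their part in the count was not tested. PTGR1 had 11.6 and 11.8 CPM at 50 ug/mL Polygalae Radix, against 10.7 and 12.4 CPM at 10 ug/mL, and its step difference was 1.45 ± 0.11 (SE, adjusted p = 2.7e-13). GSTA2 had 5.05 and 5.19 CPM at 50 ug/mL Polygalae Radix, against 6.05 and 5.87 CPM at 10 ug/mL, and a step difference of 2.04 ± 0.19 (SE, adjusted p = 2.3e-10). The step differences of AKR1C2, CPT1A and CYP19A1 were 1.19 ± 0.10, 0.98 ± 0.11 and 1.18 ± 0.17 (SE). Of the 3 antioxidant lists, 8 of 13, 10 of 14 and 7 of 10 members had a step difference above 0 past the threshold, among them NQO1 at 0.37 ± 0.07 (SE, adjusted p = 0.00025), whose own step in Aucklandiae Radix had missed it.

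**Figure D5:**
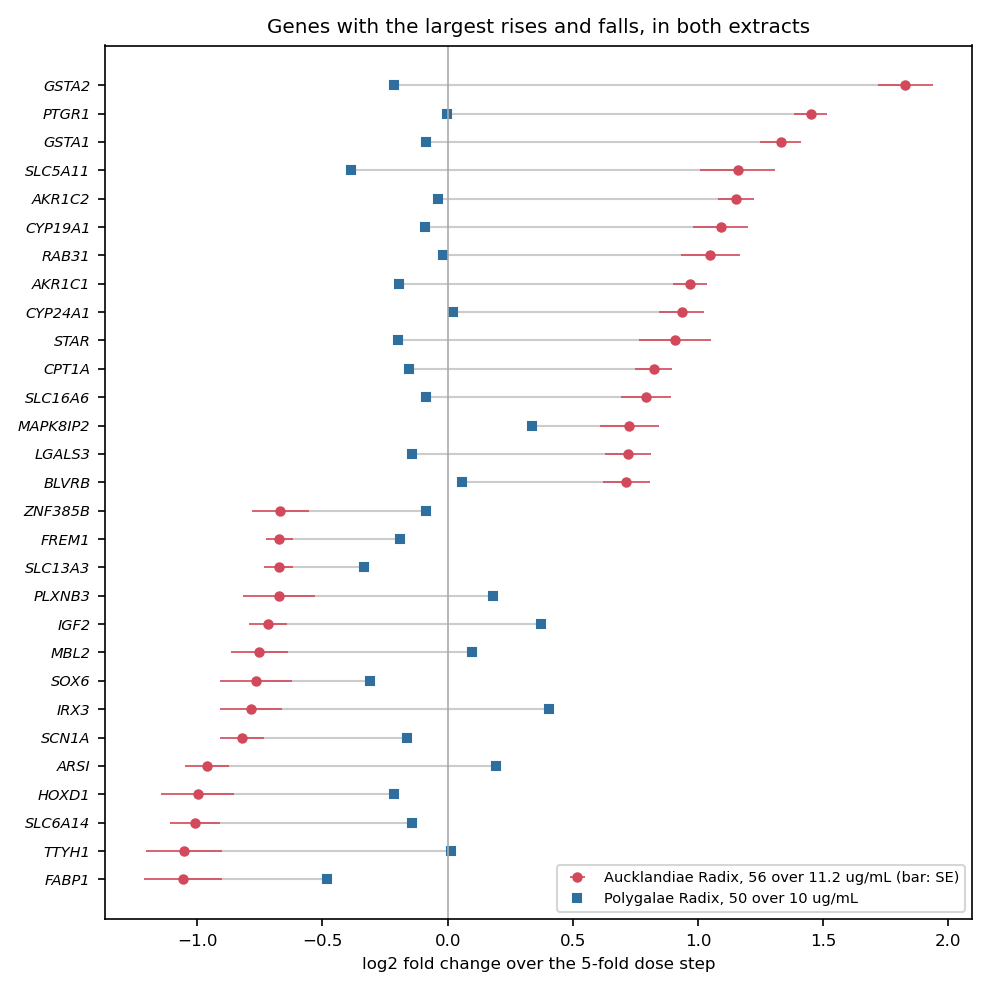
Log2 fold change over a 5-fold dose step for genes with the largest rises and falls at 56 over 11.2 ug/mL Aucklandiae Radix (red circles, bars are SE), beside 50 over 10 ug/mL Polygalae Radix (blue squares). The genes were chosen by the Aucklandiae values, so the red points are a description. The Polygalae points lie between -0.48 for FABP1 and 0.41 for IRX3.

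For other genes the steps of both extracts had the same sign, and the Polygalae steps below are given as values. FABP1 had 76.9 and 105 CPM at 50 ug/mL Polygalae Radix, against 112 and 141 CPM at 10 ug/mL, and its step difference did not pass (-0.57 ± 0.21 SE, adjusted p = 0.089). AFP had a step of -0.44 in Polygalae Radix beside -0.51 in Aucklandiae Radix, with a difference of -0.08 ± 0.09 (SE, adjusted p = 0.67), and TTR, PHGDH and SHMT2 had Polygalae steps of -0.40, -0.38 and -0.32. IGF2 had opposite signs, with 3275 and 2779 CPM at 50 ug/mL Polygalae Radix against 2353 and 2320 CPM at 10 ug/mL, and a step difference of -1.09 ± 0.11 (SE, adjusted p = 8.1e-10). Of the mitosis genes 9 of 24 had a step difference below 0 past the threshold and 0 above (10 and 0 by DESeq2, and 11 and 0 at an unadjusted p under 0.05), PLK1 with -0.51 ± 0.07 (SE). Of the 8 metallothionein genes 0 passed in either direction by edgeR and by DESeq2, and 1 each way passed an unadjusted p of 0.05, with a median difference of -0.27.

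In a panel of 16 genes, 6 had a step difference past the threshold over all genes tested: HMOX1, GCLM, TXNRD1, SRXN1, ALB and TXNIP. The share of all genes tested that passed was 7.73%, with 4.28% more positive for Aucklandiae Radix and 3.45% more negative. The Polygalae steps were 0.12 for HMOX1, -0.03 for GCLM, 0.10 for TXNRD1, 0.15 for SRXN1 and -0.13 for TXNIP, beside Aucklandiae steps of 0.54, 0.42, 0.44, 0.41 and -0.62 in the same order of genes. For ALB the difference of 0.28 ± 0.09 (SE, adjusted p = 0.033) came with steps of -0.11 in Aucklandiae Radix and -0.40 in Polygalae Radix. SLC7A11, HSPA1A, DNAJB1, CDKN1A, TRIB3, CYP1A1, EGR1, MKI67, SPTLC3 and HMGCS1 did not pass. A fit of only these 4 groups called 0 of the panel, and without single libraries 3 to 5 passed, with 3 when replicate 2 of 56 ug/mL Aucklandiae Radix was left out.

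RefSeq promoters (GRCh38.p14, 250 bases before to 50 after a start) were searched for 4 short motifs on both strands, as a description. The antioxidant response element core TGACNNNGC was in 13.3% of 35116 promoters. Of the called antioxidant genes 14 had a promoter in the table, and the core was in 3 of them: GCLM, TXNRD1 and FECH. It was in 0 of 11 promoters found for the 15 largest rises and in 3 of 11 for the 15 largest falls (ARSI, MBL2 and ZNF385B). The heat shock element GAANNTTCNNGAA, or its other phase, was in 0.49% of promoters and in none of these sets. The xenobiotic response element core GCGTG was in 36.5% of promoters, in 7 of the 14 called antioxidant genes, in 3 of 11 of the rises and 3 of 11 of the falls, and the C/EBP-ATF element TGATGNAA was in 3.62% of promoters and in MBL2 alone of these sets. Windows of this length leave more distant elements unseen.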

How the data were processed

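RNA was sequenced from HepG2 cells, with 60 libraries in the series. Per the labels and the submitters' processing notes, reads were trimmed with Trim Galore 0.6.5, checked with FastQC 0.11.9, aligned with STAR 2.7.3a to GRCh38 and quantified with RSEM 1.3.3. The deposited values are the authors' expected counts per gene, 9.97% of them not whole, and these were rounded. The sources used here do not give the strand setting or annotation release. Gene names were matched to GENCODE 29, which held 57055 of 60675 IDs, and counts outside it made up 0.0459%. Library totals were 17.5 to 38.9 M counts (median 23.7 M), and intervals were not derived from them.

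edgeR 4.0.16 (R 4.3.3) used TMM scaling, filterByExpr with a minimum count of 10, and 1 coefficient per group over 57 libraries in 22 groups (35 residual degrees of freedom), which share the estimate of spread; the common dispersion was 0.00216, a coefficient of variation of 4.65%. Contrasts were 56 minus 11.2 ug/mL, that step minus the Polygalae Radix step, each dose minus vehicle, and 280 minus 56 ug/mL, all two-sided with Benjamini-Hochberg adjustment over 16982 genes. SE is the absolute log2 fold change over the square root of F. DESeq2 1.42.0, other scaling and filters, GC and length correction, fewer groups, a replicate block and each library left out were tried. The scripts were tested on simulated data. Replicates of a group differed beyond counting noise (chi-square per gene 3.55 at 56 and 5.32 at 11.2 ug/mL).

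Named genes are the 15 highest and 15 lowest fold changes among called protein-coding genes with both medium-dose libraries on one side of both low-dose libraries and a mean of at least 5 CPM, a panel of 16 genes, and up to 4 called members per list; other list members were named after their values were seen. The members and the 38 gene lists were chosen with earlier results of these data known. Some genes these rules select are not reported here.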

Additional observations from a re-analysis of the deposited data

Results flagged for a closer look

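The dose step of Aucklandiae Radix differed from that of Polygalae Radix for 6 genes of the panel of 16, by the edgeR test of the difference itself. Of all genes tested 7.73% passed the same test. On the log2 scale the Aucklandiae step minus the Polygalae step was 0.42 for HMOX1, 0.44 for GCLM, 0.34 for TXNRD1, 0.26 for SRXN1, 0.28 for ALB and -0.49 for TXNIP. In a fit of these 4 groups alone, none of the 6 passed.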

How the results depend on the processing

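The 739 calls between 56 and 11.2 ug/mL became 1121 with the GC and length trend removed, 1193 with only the compared groups in the fit, and 323 to 385 with a library left out; DESeq2 called 750, and 833 passed with no count filter. None of the 93 called named genes changed sign in these settings. Same-numbered libraries at 56 and 11.2 ug/mL had a correlation of deviations of 0.062. It was 0.069 for the Polygalae Radix pair of doses, but 0.41 between its high and medium dose. Each value rests on 1 difference of replicates per dose, so it cannot show whether same-numbered libraries shared a culture or preparation. The labels do not say this either. The replicate block called 779, and the replicate block with GC and length correction 1205. The step difference from Polygalae Radix (1312 calls) gave 194 with only the compared groups and 568 to 2391 with a library left out, and its panel (6) gave 0, and 3 to 5. Pooled low doses in place of vehicle gave 3062 calls against 6829 at 56 ug/mL, and 128 against 5656 at 11.2 ug/mL. Heme and iron calls (5) were 3 without a count filter and 3 without any 1 library; mitosis calls (16) were 10 to 13 and metallothionein calls (4) 0 to 3 without a library. Of 93 called named genes, 53 were called in all 4 fits without a library. The cause of these differences was not tested. No limit of detection was measured.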
